A study of Mus musculus with 17 samples.

Results

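Unirradiated wounded skin at day 9 after injury was compared with unirradiated wounded skin at day 6. The comparison used 5 of the 17 RNA sequencing libraries of the series: 3 libraries labelled control day 9 (replicates 1, 2 and 3) and 2 labelled control day 6 (replicates 1 and 2). All were bulk skin of C57/BL6j mice, from total RNA extracted with TRIzol and sequenced as paired-end Smart-Seq2 libraries. The control groups received no ionizing radiation. The irradiated groups of the same days (3 libraries at day 9 and 2 at day 6) serve below to show where the 2 arms differ. Like all other libraries of the series, they also enter the estimate of spread behind every p-value. The labels give no sex, age, wound type or wound size, and name no allele or other treatment. They do not say that each library is a separate animal. The p-values thus measure the spread between libraries within the groups of the whole series of 17. Of 34140 genes in the table, 14103 reached 1 FPKM (fragments scaled by gene length and library total) in at least 2 of the 5 libraries and were tested.

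As background, a skin wound first draws in neutrophils and macrophages, while keratinocytes at its edge switch to stress keratins and move over the gap. Fibroblasts then lay down a provisional matrix and replace it with collagen, which transforming growth factor beta (TGF-beta), acting through its receptors and SMAD proteins, is known to promote. Hair follicles in mouse skin cycle between rest and growth, and in growth they build the inner root sheath and the hair shaft from keratins that the epidermis between follicles does not use. Markers of the labelled tissue were present. The basal keratinocyte keratin Krt5 was 1534 and 1018 FPKM at day 6 and 902, 600.1 and 574 FPKM at day 9, and the fibroblast receptor gene Pdgfra was 10.5 and 10.9 FPKM at day 6 and 21.5, 15.7 and 21.2 FPKM at day 9. The skeletal muscle gene Acta1 was also present, at 1137 and 1545 FPKM at day 6 and 454, 757 and 908 FPKM at day 9.

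The libraries of a group were not alike, and this touches every result. Their depth ran from 27700147 to 30758592 fragments. Over genes, which share these libraries and are no replicates, log2(FPKM + 1) correlated between the day-6 libraries with a Pearson's r of 0.965. At day 9 it was 0.986 between replicates 1 and 2, but 0.958 and 0.942 between replicate 3 and each of them. The summed FPKM of 15 neutrophil genes was 19885 and 2169 at day 6 and 1091, 313 and 8982 at day 9. Replicate 1 of day 6 and replicate 3 of day 9 were thus the high libraries of their groups. S100a8 and S100a9, which stressed keratinocytes also express, held 94.5% to 99.2% of that sum, and the other 13 genes summed to 165 and 110 FPKM at day 6 and 29.7, 17.1 and 120 FPKM at day 9, in the same order. The summed FPKM of 26 wound-edge keratinocyte genes was 42577 and 11226 at day 6 and 9739, 4207 and 17277 at day 9. That list also holds S100a8 and S100a9. Without them it was 22858 and 9167 FPKM at day 6 and 8678, 3911 and 8415 FPKM at day 9, with replicate 3 of day 9 just under replicate 1. The part of these differences in the results below was not tested. In bulk tissue, fewer cells of a type and less RNA per cell cannot be told apart. Mitochondrial genes held 10.9% and 10.2% of summed FPKM at day 6 and 9.32%, 10.1% and 11.1% at day 9. All 5 libraries were alike in the Y-linked helicase gene Ddx3y, at 17.1 to 18.2 FPKM.

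From day 6 to day 9, 6 inner root sheath keratins, the hair shaft genes Krtap7-1, Krtap8-1 and Krtap11-1, the matrix genes Col12a1, Postn, Thbs2 and Fbn2, and the secreted growth factors Ptn, Mdk, Igf1 and Tgfb2 rose. The chemokine Ccl4 and the sebaceous lipid enzymes Elovl3, Awat1 and Dgat2 fell. The fast-muscle gene Actn3 also fell, by a call that ended on leaving out any 1 of the 5 libraries. With limma-trend on log2(FPKM + 1), 481 genes rose (3.41% of those tested) and 134 fell (0.95%) at an adjusted p under 0.05, and 140 and 46 of them changed by at least 1 on the log2 scale. In all 615 genes (4.36% of those tested) the day-9 values lay wholly above or wholly below the day-6 values. Over all tested genes, all 3 day-9 values lay above both day-6 values in 22.9% and below them in 18.5%, and the log2 fold change was above 0 in 52.3% and below 0 in 47.7%. The shares of all tested genes are the background for the counts of each gene list below. Rescaling to the nuclear genes shifted the median log2 fold change of all genes to 0.15, and the share of passing genes that were higher went from 78.2% to 93.3%. Without replicate 1 of day 6 no gene passed (1900 had an unadjusted p under 0.05, and the lowest adjusted p was 0.131), and a fit of the 5 libraries alone passed none (2934 unadjusted, lowest adjusted p 0.117). With replicate 1 or 2 of day 9 left out, 25 and 26 genes passed. Of the rising and falling genes named at the head of this paragraph, Ptn alone passed in both of those fits.

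**Figure D1:**
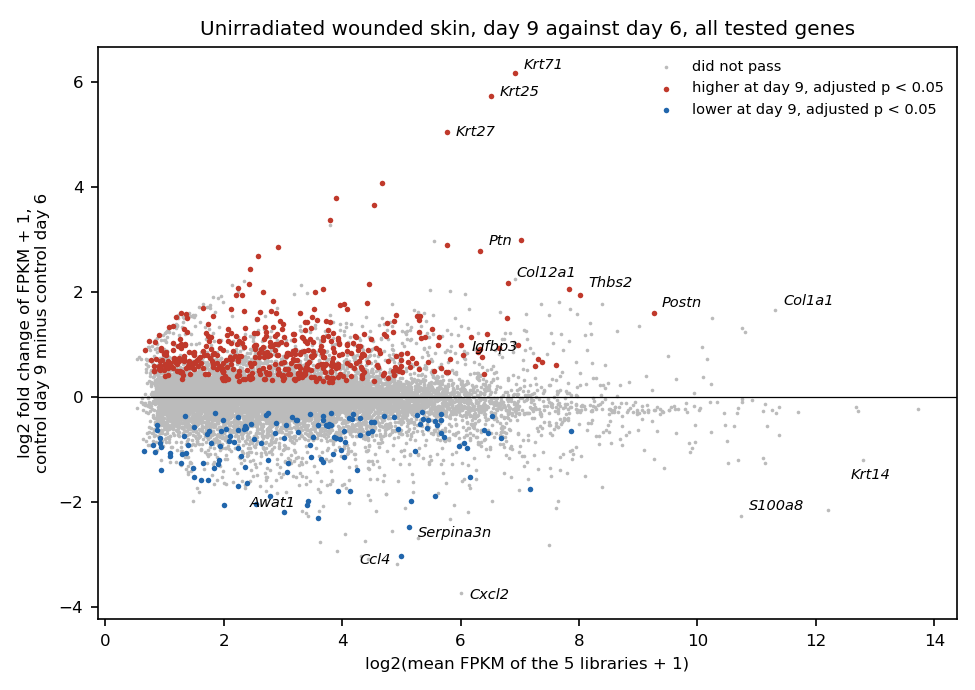
Log2 fold change of FPKM + 1 (control day 9 minus control day 6, vertical axis) against the log2 of the mean FPKM of the 5 libraries plus 1 (horizontal axis), 1 point for each of the 14103 tested genes. Red points are the 481 genes that rose and blue points the 134 that fell at an adjusted p under 0.05; the hair follicle keratins Krt71, Krt25 and Krt27 lie far above the rest, while Col1a1, Krt14, S100a8 and Cxcl2 are grey.

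Keratins of the inner root sheath, the layer that moulds the growing hair, held the 4 highest fold changes among genes that rose. Type II keratin Krt71 was 1.6 and 0.0942 FPKM at day 6 and 245, 332 and 21.2 FPKM at day 9. It was close to absent at day 6, and at day 9 it was over 10 times lower in replicate 3 than in the other libraries. Its log2 change, day 9 minus day 6, was 6.18 ± 0.94 (SE), adjusted p = 0.0137. Krt25, a type I partner keratin, was 1.31 and 0.173 FPKM at day 6 and 182, 257 and 13.5 FPKM at day 9, a log2 change of 5.74 ± 0.94 (SE), adjusted p = 0.0163. Krt27, another type I keratin of that layer, was 1.38 and 0.244 FPKM at day 6 and 109, 147 and 10.6 FPKM at day 9, a log2 change of 5.06 ± 0.82 (SE), adjusted p = 0.0159. Krt73 was 0.611 and 0.206 FPKM at day 6 and 54.3, 64.3 and 2.62 FPKM at day 9 (log2 fold change 4.08), Krt28 was 0.881 and 0.740 FPKM at day 6 and 44.9, 61.1 and 3.16 FPKM at day 9 (3.66) and Krt72 was 0.0897 and 0.0172 FPKM at day 6 and 9.12, 14.6 and 0.961 FPKM at day 9 (2.69). All 6 keratins had their lowest day-9 value in replicate 3. They did not overlap with day 6, which held for all 615 passing genes and so adds no support. The 3 type I genes lie within 59.4 kb on chromosome 11 and the 3 type II genes within 68.4 kb on chromosome 15 (GRCm38), so the members of each cluster are neighbours and not independent loci.

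Promoter windows of 4 of these keratins are shown because the genes moved together. Each window runs from 250 bases before to 50 bases after the start given by RefSeq (GRCm38.p6), 5′ to 3′ on the gene's strand, which is the minus strand for all 4. The windows are chr15:101743048-101743347 for Krt71, chr15:101802311-101802610 for Krt73, chr11:99322902-99323201 for Krt25 and chr11:99351069-99351368 for Krt27. Capitals mark the motif TATAAA, the TATA-box sequence, and, in Krt71 and Krt73, the longest run of bases that these windows share, TTGCAAGCCCAGCA.
Krt71: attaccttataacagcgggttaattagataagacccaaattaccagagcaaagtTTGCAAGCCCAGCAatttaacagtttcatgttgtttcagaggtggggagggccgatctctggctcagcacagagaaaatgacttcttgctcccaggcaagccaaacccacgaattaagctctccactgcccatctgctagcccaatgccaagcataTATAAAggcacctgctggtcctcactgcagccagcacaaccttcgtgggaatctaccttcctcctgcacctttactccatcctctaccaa
Krt73: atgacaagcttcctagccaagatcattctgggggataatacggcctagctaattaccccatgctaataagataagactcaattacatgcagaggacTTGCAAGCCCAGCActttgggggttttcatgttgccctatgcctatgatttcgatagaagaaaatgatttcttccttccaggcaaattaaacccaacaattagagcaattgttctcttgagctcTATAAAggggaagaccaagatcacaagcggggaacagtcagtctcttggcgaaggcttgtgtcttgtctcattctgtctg
Krt25: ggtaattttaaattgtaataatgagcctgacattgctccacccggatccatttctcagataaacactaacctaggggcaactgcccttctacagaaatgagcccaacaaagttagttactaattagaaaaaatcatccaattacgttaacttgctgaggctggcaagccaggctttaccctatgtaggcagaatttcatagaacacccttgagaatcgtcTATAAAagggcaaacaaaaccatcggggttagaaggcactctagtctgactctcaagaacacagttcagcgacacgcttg
Krt27: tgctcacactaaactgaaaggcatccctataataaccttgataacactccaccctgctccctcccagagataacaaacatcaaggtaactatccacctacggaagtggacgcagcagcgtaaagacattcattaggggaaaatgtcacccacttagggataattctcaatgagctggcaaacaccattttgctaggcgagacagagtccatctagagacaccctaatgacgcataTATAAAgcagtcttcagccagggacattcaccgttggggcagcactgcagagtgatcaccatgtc
TATAAA begins at position -40 from the start in Krt71, -30 in Krt73, -30 in Krt25, -15 in Krt27 and -30 in Krt28. Counting both strands, all 6 inner root sheath keratin windows hold it, against 13.6% of the 32851 windows of 300 bases in the RefSeq table. The window of Krt72 holds it only on the opposite strand, so it has no TATAAA on the gene's own strand. The 14-base run is found in 2 windows of that table in all, those of Krt71 and Krt73. The motif CTTTGAA, a form of the site that LEF and TCF factors recognise, was found on either strand in 1 of the 6 windows, that of Krt28, and in 5.1% of all windows. A match is a run of letters and no evidence of binding.

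The list of 26 inner root sheath and hair shaft genes had 24 tested members. Of these 8 rose (3.41% of all tested genes did), 0 fell and 16 did not pass, and the median log2 fold change was 1.96. In 23 of 24 every day-9 value lay above both day-6 values, against 22.9% of all tested genes. The margin was often thin because replicate 3 was low. Members under 1 FPKM in both day-6 libraries, such as Krt33a, reached the filter only through day 9. The count of 23 and the median are thus partly set by the filter. Hair shaft keratin Krt33a was 0.0693 and 0 FPKM at day 6 and 2.71, 8.94 and 0.0700 FPKM at day 9, and the inner root sheath scaffold gene Tchh was 9.79 and 2.61 FPKM at day 6 and 88.9, 119 and 9.84 FPKM at day 9. Krtap8-1, which codes for a protein that binds keratin filaments in the shaft, was 0.247 and 0 FPKM at day 6 and 13.4, 49.5 and 1.18 FPKM at day 9, a log2 change of 3.38 ± 0.85 (SE), adjusted p = 0.0462. Krtap11-1 of the same kind was 0.142 and 0 FPKM at day 6 and 7.32, 24.2 and 1.22 FPKM at day 9 (2.86 ± 0.66 SE, adjusted p = 0.0381). Krtap7-1, which is outside the list, was 0.0577 and 0 FPKM at day 6 and 15.9, 51.5 and 2.27 FPKM at day 9 (3.80 ± 0.75 SE, adjusted p = 0.0259). The shaft keratin Krt35 was 0.328 and 0.229 FPKM at day 6 and 24, 38.6 and 0.904 FPKM at day 9 and did not pass (3.27 ± 0.89 SE, adjusted p = 0.0582). Without replicate 3 of day 9, 23 of the 24 passed, without replicate 2 of day 6, 3 did, and without any other 1 of the 5 libraries 0 did. The list's median ran from 1.29 to 2.77 over the 5 libraries left out in turn. Krt85 was not analysed here, and Krtap16-1 was under the filter.

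**Figure D2:**
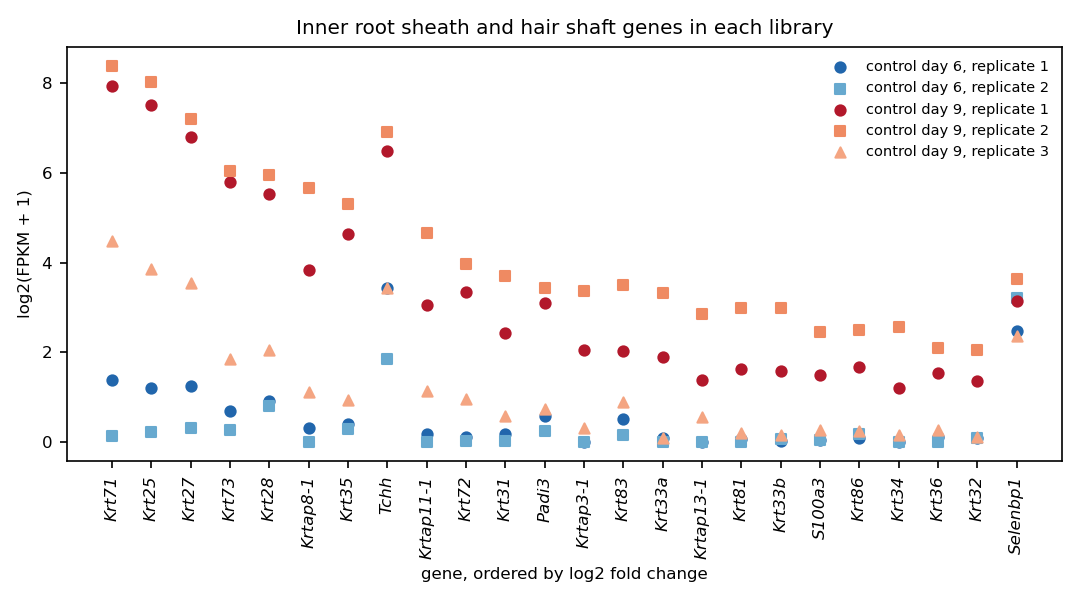
Log2(FPKM + 1) of the 24 tested inner root sheath and hair shaft genes (horizontal axis, ordered by log2 fold change) in each control library of day 6 (blue) and day 9 (red and orange). Replicates 1 and 2 of day 9 stand far above both day-6 libraries for most genes, while replicate 3 of day 9 (triangles) lies just above them.

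Genes that direct follicle growth were less uniform. Of 20 listed, 16 were tested, 1 rose (3.41% of all tested genes did), 0 fell, and the median log2 fold change was 0.54. The Wnt-responsive transcription factor gene Lef1 rose from 0.256 and 0.176 FPKM at day 6 to 1.57, 2.06 and 0.489 FPKM at day 9 (0.90 ± 0.23 SE, adjusted p = 0.0481). Shh, the hedgehog ligand of the growing follicle, was 0.0753 and 0.494 FPKM at day 6 and 3.09, 3.67 and 0.317 FPKM at day 9 (1.21 ± 0.44 SE, adjusted p = 0.119). Msx2, a homeobox gene of the hair matrix, was 0.632 and 0.722 FPKM at day 6 and 6.05, 8.96 and 0.694 FPKM at day 9, with replicate 3 inside the day-6 range (1.55 ± 0.53 SE, adjusted p = 0.102). Without replicate 3 of day 9, 6 of the 16 passed, and without any other 1 of the 5 libraries 0 did. Melanocyte genes, of which 9 were tested, had a median of 0.92 and none passed. The pigment enzyme gene Dct was 2.56 and 8.44 FPKM at day 6 and 20.5, 33.4 and 1.71 FPKM at day 9, so that replicate 3 lay below both day-6 values. Another pigment enzyme gene, Tyrp1, was 1.16 and 4.64 FPKM at day 6 and 11.3, 17.3 and 0.600 FPKM at day 9. Without that library 7 of the 9 melanocyte genes passed, and without any other 1 of the 5 libraries 0 did.

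Collagen genes had higher values at day 9. Of 19 tested members 2 rose (3.41% of all tested genes did) and 0 fell. All day-9 values lay above both day-6 values in 18, against 22.9% of all tested genes. The list's median log2 fold change was 1.39. Col12a1, a collagen that binds the surface of fibrils, was 22.5 and 52.0 FPKM at day 6 and 149, 161 and 167 FPKM at day 9, a log2 change of 2.18 ± 0.55 (SE), adjusted p = 0.0462. The day-9 libraries lay close together, while replicate 1 of day 6 was the low library. Col16a1, a related collagen, was 15.6 and 33.4 FPKM at day 6 and 64.2, 64.5 and 46.6 FPKM at day 9 (1.30 ± 0.33 SE, adjusted p = 0.0466). The chains of the main fibrillar collagen did not pass: Col1a1 was 665 and 1713 FPKM at day 6 and 3621, 3741 and 2896 FPKM at day 9 (1.67 ± 0.56 SE, adjusted p = 0.098) and Col1a2 was 379.8 and 837 FPKM at day 6 and 1663, 1782 and 1413 FPKM at day 9 (1.51 ± 0.45 SE, adjusted p = 0.0738). Summed over the list, FPKM was 2157 and 4944 at day 6 and 9731, 10121 and 8294 at day 9. Replicate 1 of day 6 was the lowest in collagen and, with or without S100a8 and S100a9, the highest in the neutrophil and wound-edge sums. The collagen median was 0.94 without it and 1.90 without replicate 2 of day 6. The members that passed were 9 without replicate 2 of day 6, 3 without replicate 3 of day 9 and 0 without any other 1 of the 5 libraries.

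Enzymes that modify and crosslink collagen lay on the same side. All 16 tested genes had every day-9 value above both day-6 values, against 22.9% of all tested genes. The list's median log2 fold change was 1.07, and 0 passed. Loxl2, which crosslinks collagen, was 17.1 and 31.2 FPKM at day 6 and 80.5, 98.0 and 104 FPKM at day 9 (1.97 ± 0.55 SE, adjusted p = 0.0611). The family members Lox and Loxl1 had log2 changes of 0.95 ± 0.50 (SE), adjusted p = 0.256 and 1.35 ± 0.44 (SE), adjusted p = 0.0926. Serpinh1, the collagen chaperone, was 185 and 371 FPKM at day 6 and 664, 741 and 631 FPKM at day 9 (1.36 ± 0.47 SE, adjusted p = 0.105). Without replicate 2 of day 6, 3 of the 16 passed, and without any other 1 of the 5 libraries 0 did.

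Of 18 genes of the provisional matrix, 3 rose (3.41% of all tested genes did) and 0 fell, with a median of 1.21. With replicate 3 of day 9 left out 2 of them passed, and with replicate 1 or 2 of day 9 left out 0 did. Thbs2, a matricellular thrombospondin, was 62.8 and 136 FPKM at day 6 and 326, 441 and 319 FPKM at day 9 (1.94 ± 0.41 SE, adjusted p = 0.0326). Postn, a matricellular protein of wound and scar, was 192 and 379 FPKM at day 6 and 804, 971 and 719 FPKM at day 9 (1.61 ± 0.41 SE, adjusted p = 0.0489). Fbn2, a microfibril gene, was 2.06 and 4.53 FPKM at day 6 and 16.8, 17.4 and 12.5 FPKM at day 9 (2.0 ± 0.36 SE, adjusted p = 0.0218). For each of the 3, every day-9 library exceeded both day-6 libraries, as for every gene that rose. Fn1, which codes for fibronectin, was 25.5 and 73.4 FPKM at day 6 and 144, 131 and 131 FPKM at day 9 (1.62 ± 0.66 SE, adjusted p = 0.155), and Tnc, which codes for tenascin-C, was 48.8 and 67.8 FPKM at day 6 and 109, 122 and 186 FPKM at day 9 (1.22 ± 0.71 SE, adjusted p = 0.306). The elastin gene Eln overlapped between the days, at 21.5 and 71.7 FPKM at day 6 and 33.5, 56.8 and 22.3 FPKM at day 9 (-0.17 ± 0.66 SE, adjusted p = 0.903). Tnn, a tenascin outside the list, rose from 5.83 and 17.1 FPKM at day 6 to 82.6, 79.2 and 83.4 FPKM at day 9 (2.89 ± 0.63 SE, adjusted p = 0.0351). Prss35, a gene of a trypsin-like protein, rose from 12 and 42.0 FPKM at day 6 to 202, 261 and 125 FPKM at day 9 (3.00 ± 0.74 SE, adjusted p = 0.045).

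Small leucine-rich proteoglycans, which space collagen fibrils, had 10 tested members, of which 1 rose and 0 fell (median 0.89). The share that rose among all tested genes was 3.41%. The riser was Kera, keratocan, at 0.220 and 1.14 FPKM at day 6 and 6.13, 7.68 and 2.96 FPKM at day 9 (1.95 ± 0.30 SE, adjusted p = 0.0137). Dcn, decorin, was 166 and 261 FPKM at day 6 and 262, 281 and 319 FPKM at day 9 (0.46 ± 0.51 SE, adjusted p = 0.611), and Lum, lumican, was 152 and 294 FPKM at day 6 and 501, 594 and 451 FPKM at day 9 (1.27 ± 0.43 SE, adjusted p = 0.0973). None of 16 metalloproteinases and inhibitors passed (median 0.53). Mmp2 was 85.5 and 163 FPKM at day 6 and 215, 216 and 198 FPKM at day 9, and Mmp3, another matrix-degrading enzyme, was 108 and 124 FPKM at day 6 and 52.9, 41.9 and 143 FPKM at day 9, with replicate 3 of day 9 the highest of the 5.

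**Figure D3:**
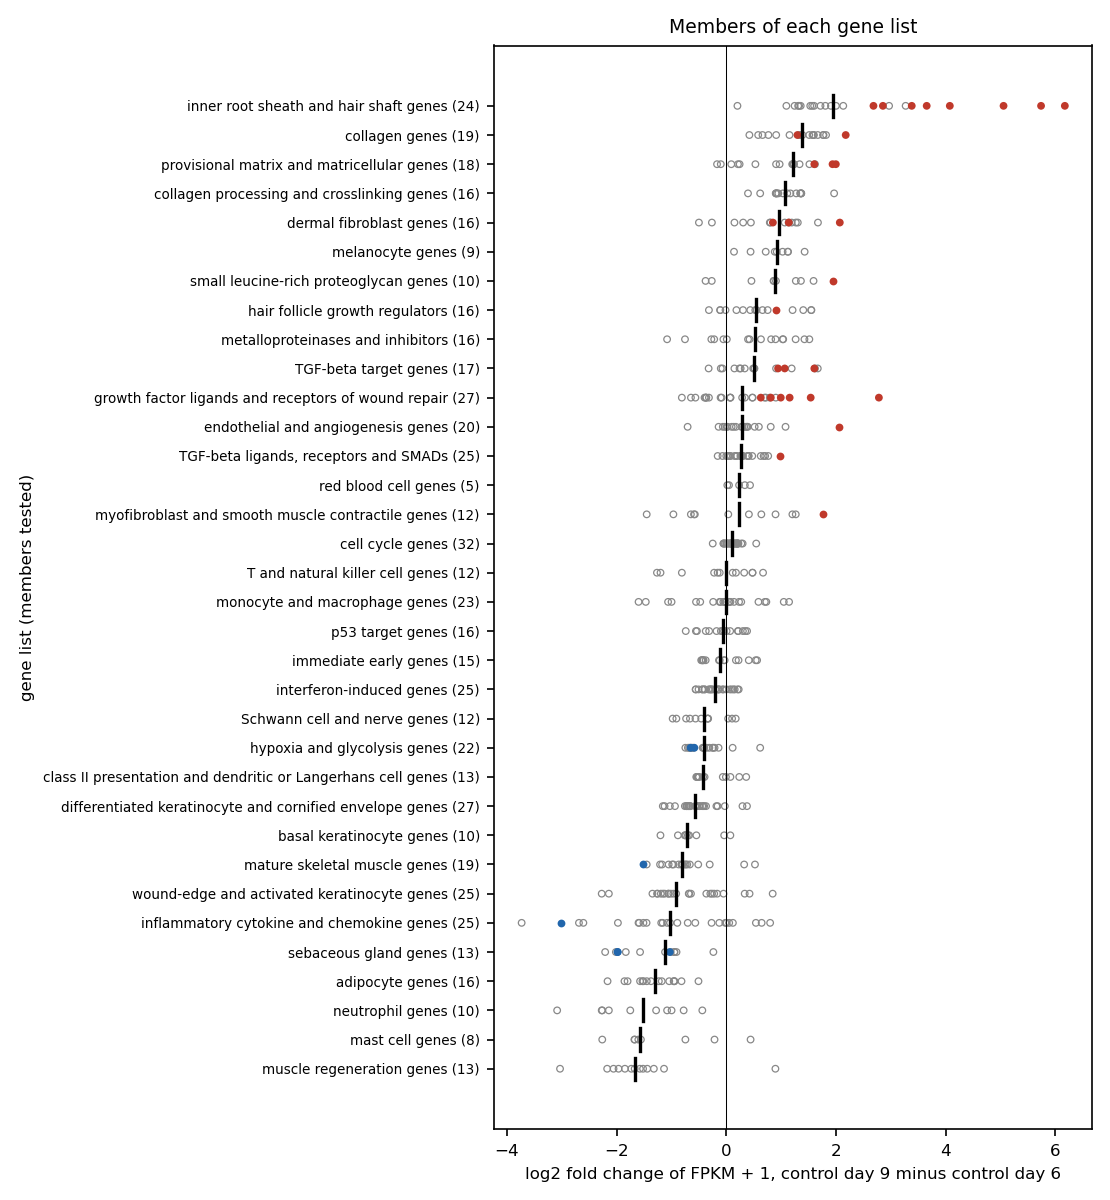
Log2 fold change of FPKM + 1 (control day 9 minus control day 6) of every tested member of each gene list with at least 5 tested members (1 circle a gene; filled red for genes that rose, filled blue for genes that fell, open for genes that did not pass), with the list's median as a black bar. Hair follicle and matrix lists lie to the right of 0, and lists of fat, sebaceous gland, mast cells and regenerating muscle to the left.

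Growth factors and their partners had 6 risers among 27 tested members (3.41% of all tested genes rose), with 0 fallers and a median of 0.29. Ptn, pleiotrophin, a heparin-binding growth factor, was 11.6 and 22.5 FPKM at day 6 and 146, 139 and 80.0 FPKM at day 9 (2.78 ± 0.38 SE, adjusted p = 0.0108). Its relative Mdk, midkine, was 14 and 20.2 FPKM at day 6 and 52.7, 55.3 and 45.4 FPKM at day 9 (1.54 ± 0.24 SE, adjusted p = 0.0144). Igfbp3, which binds insulin-like growth factors, was 35.5 and 43.9 FPKM at day 6 and 80.9, 77.8 and 80.3 FPKM at day 9 (0.99 ± 0.11 SE, adjusted p = 0.0095), and its 3 day-9 values differed by less than its 2 day-6 values. Igf1, the growth factor itself, was 10.7 and 18.0 FPKM at day 6 and 43.3, 35.3 and 22.0 FPKM at day 9 (1.16 ± 0.27 SE, adjusted p = 0.0393). The platelet-derived growth factors Pdgfc and Pdgfb rose by 0.81 and 0.63 on the log2 scale. The epidermal growth factor ligand Hbegf was 48.9 and 10.4 FPKM at day 6 and 15.4, 6.85 and 48.7 FPKM at day 9, following the order of the neutrophil sum within each day, and its receptor Egfr was 10.7 and 11.3 FPKM at day 6 and 11.2, 12.3 and 11.2 FPKM at day 9. Among the 46 passing genes that are named here by rule, Ptn, Igfbp3 and the fibroblast gene Dlk1 were the 3 that passed with any 1 of 4 libraries left out, the exception being replicate 1 of day 6. Without that library their log2 fold changes were 2.34, 0.84 and 1.89.

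The TGF-beta pathway is named in the title of the series. Among its 25 ligands, receptors and SMADs 0 fell, and the median log2 fold change was 0.28. Of the 25, 1 gene rose, which is close to the share of 3.41% among all tested genes. That gene was the ligand Tgfb2, at 2.61 and 4.39 FPKM at day 6 and 6.98, 7.2 and 8.96 FPKM at day 9 (0.98 ± 0.18 SE, adjusted p = 0.0218). The ligand Tgfb1 was 13.2 and 16.1 FPKM at day 6 and 18.5, 17.2 and 22.7 FPKM at day 9 (0.38 ± 0.30 SE, adjusted p = 0.447), and Tgfb3 was 8.89 and 14.8 FPKM at day 6 and 21.5, 22.0 and 14.5 FPKM at day 9 (0.68 ± 0.29 SE, adjusted p = 0.168). The receptor genes Tgfbr1 and Tgfbr2 had log2 changes of 0.18 ± 0.21 (SE), adjusted p = 0.63 and 0.76 ± 0.30 (SE), adjusted p = 0.148. The signal transducers Smad2, Smad3 and Smad4 were at 0.03, 0.30 and 0.26, and the inhibitory Smad7 was at 0.26, none of them passing. Of 17 tested target genes 3 rose (median 0.51): Postn, Bambi and Cdh2. Bambi, a decoy receptor, was 1.48 and 1.37 FPKM at day 6 and 3.81, 4.63 and 2.74 FPKM at day 9 (0.95 ± 0.17 SE, adjusted p = 0.0199). Cdh2, N-cadherin, was 0.855 and 1.75 FPKM at day 6 and 4.32, 3.95 and 3.03 FPKM at day 9 (1.07 ± 0.25 SE, adjusted p = 0.0394). The target Ctgf was highest in replicate 3 of day 9, at 8.77 and 17.8 FPKM at day 6 and 13.5, 24.4 and 43.7 FPKM at day 9.

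Contractile genes split. Of 12 tested, 1 rose (3.41% of all tested genes did), 0 fell and the median was 0.22. The smooth muscle actin gene Actg2 was 3.97 and 7.78 FPKM at day 6 and 19.9, 18.9 and 26.5 FPKM at day 9 (1.77 ± 0.42 SE, adjusted p = 0.0396). The myofibroblast marker Acta2 was 119 and 219 FPKM at day 6 and 339, 369 and 419 FPKM at day 9 (1.21 ± 0.37 SE, adjusted p = 0.0789), with no overlap. Des, desmin, which striated muscle also uses, was 155 and 182 FPKM at day 6 and 39.5, 72.0 and 78.8 FPKM at day 9 (-1.45 ± 0.38 SE, adjusted p = 0.0536). Dermal fibroblast genes had 3 risers among 16 tested (median 0.96): Dlk1 at 0.354 and 0.752 FPKM at day 6 and 4.49, 9.32 and 3.78 FPKM at day 9 (2.07 ± 0.29 SE, adjusted p = 0.0111), the surface glycoprotein Thy1 at 34.5 and 48.1 FPKM at day 6 and 82.3, 90.9 and 101 FPKM at day 9 (1.14 ± 0.25 SE, adjusted p = 0.0363) and the transcription factor gene Twist2 at 1.18 and 1.63 FPKM at day 6 and 3.20, 3.32 and 3.46 FPKM at day 9 (0.85 ± 0.22 SE, adjusted p = 0.0469).

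**Figure D4:**
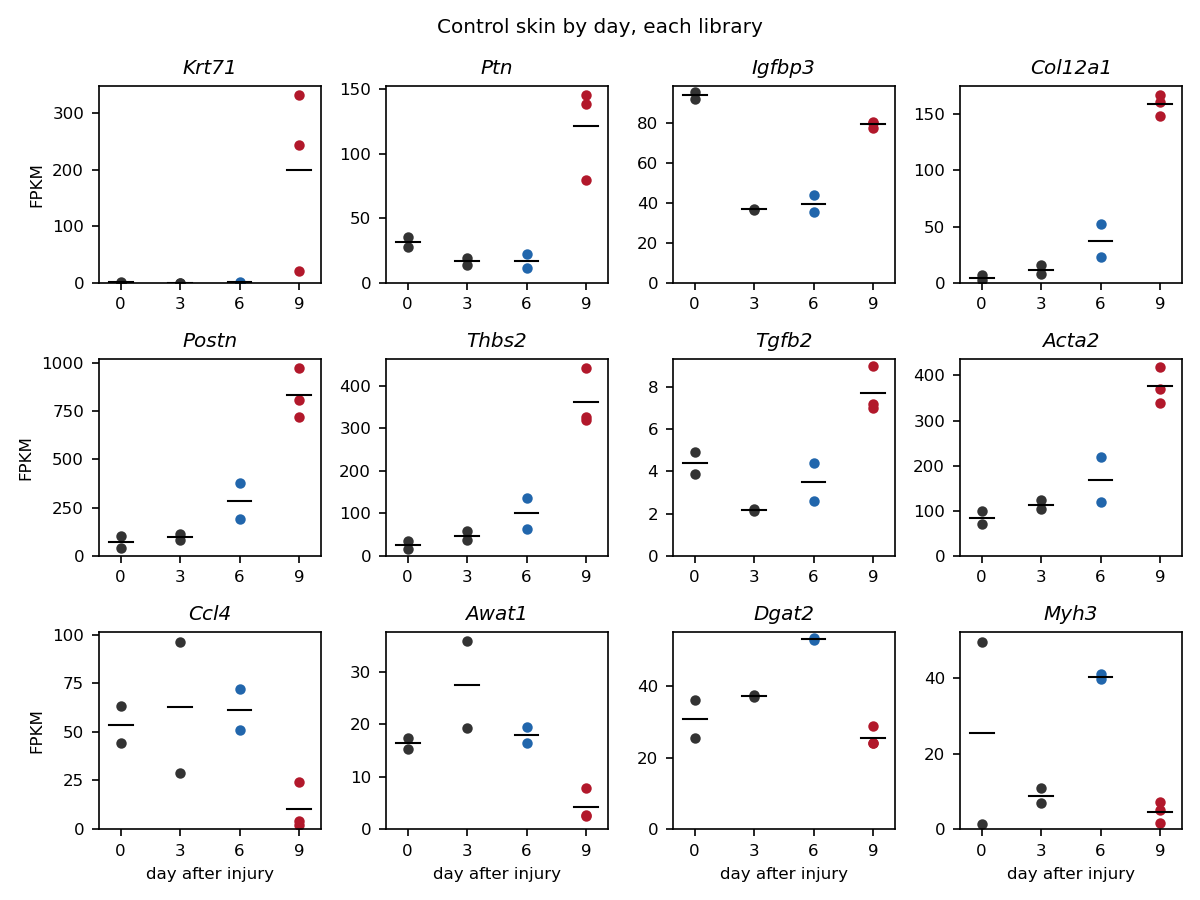
FPKM (vertical axes, each from 0) of 12 genes in every control library by day after injury (days 0, 3, 6 and 9), with a bar at each group's mean; day 6 is blue and day 9 red. Krt71, Ptn, Col12a1, Postn, Thbs2 and Acta2 are at their highest at day 9, Igfbp3 is high at days 0 and 9, and Ccl4, Awat1, Dgat2 and Myh3 are lower at day 9 than at day 6.

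The earlier control days place these values. Krt71 was 0.917 and 0.0614 FPKM at day 0 and 0.0312 and 0.123 FPKM at day 3, so day 9 was the one control time at which any library passed 2 FPKM. Igfbp3 was 92.5 and 95.8 FPKM at day 0 and 36.6 and 36.9 FPKM at day 3, which puts its day-9 level near that of day 0. Col12a1 was 2.09 and 6.52 FPKM at day 0 and 15.3 and 7.71 FPKM at day 3, below both later days. No test of day 9 or day 6 against these earlier days was made here.

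Inflammatory cytokines and chemokines were lower in value at day 9, with 1 faller, 0 risers and a median of -1.03 over 25 tested genes. The share that fell among all tested genes was 0.95%. The faller was Ccl4, a chemokine that draws monocytes, at 51.0 and 71.9 FPKM at day 6 and 4.29, 2.31 and 24.1 FPKM at day 9 (-3.02 ± 0.77 SE, adjusted p = 0.0481). Cxcl2, which draws neutrophils, was 155 and 102 FPKM at day 6 and 5.24, 1.67 and 51.1 FPKM at day 9 (-3.73 ± 1.01 SE, adjusted p = 0.0563). Il1b and Il1a, the interleukin-1 genes, overlapped between the days: Il1b was 166 and 84.5 FPKM at day 6 and 20.9, 6.00 and 181 FPKM at day 9, and Il1a was 33.1 and 13.4 FPKM at day 6 and 6.01, 6.89 and 19.9 FPKM at day 9. Replicate 3 of day 9 was the highest day-9 library for all 4. Without it 7 of the 25 genes passed, without replicate 2 of day 6, 1 did, and without any other 1 of the 5 libraries 0 did. None of 10 neutrophil genes passed (median -1.52). S100a8, a calcium-binding alarm protein of neutrophils and stressed keratinocytes, was 5144 and 591 FPKM at day 6 and 284, 67.4 and 2422 FPKM at day 9 (-2.27 ± 1.15 SE, adjusted p = 0.241), and the days overlapped. Without replicate 3 of day 9, 7 neutrophil genes passed, and without any other 1 of the 5 libraries 0 did. The neutrophil median ran from -2.46 to -0.87 over the 5 libraries left out in turn. Serpina3n, a protease inhibitor gene outside these lists, fell from 55.4 and 79.4 FPKM at day 6 to 11.0, 6.71 and 18.3 FPKM at day 9 (-2.48 ± 0.59 SE, adjusted p = 0.0413).

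Other immune lists held 0 passing genes: monocyte and macrophage genes (23 tested, median -0.01), class II and dendritic cell genes (13, -0.42), T and natural killer cell genes (12, 0.00) and B and plasma cell genes (3, -0.18). The macrophage gene Cd68 was 47.3 and 77.1 FPKM at day 6 and 68.9, 67 and 85.0 FPKM at day 9, and the class II gene H2-Aa was 319.7 and 275 FPKM at day 6 and 145, 173 and 363 FPKM at day 9. The macrophage and T cell medians changed sign under other scalings, from -0.02 to 0.15 and from -0.03 to 0.13. T cell transcripts stood high in 1 library: Cd3d was 2.09 and 0.889 FPKM at day 6 and 0.717, 0.709 and 8.47 FPKM at day 9, highest in replicate 3 of day 9. Mast cell genes (8 tested) had a median of -1.58 with 0 passing. In 7 of 8 every day-9 value lay below both day-6 values, against 18.5% of all tested genes. The mast cell protease genes Cma1 and Mcpt4 were 17.6 and 35.8 FPKM at day 6 and 7.63, 7.28 and 6.79 FPKM at day 9 (-1.67 ± 0.47 SE, adjusted p = 0.0629) and 25.2 and 47.5 FPKM at day 6 and 11.3, 11.1 and 11.0 FPKM at day 9 (-1.56 ± 0.41 SE, adjusted p = 0.0521).

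Sebaceous gland genes had 3 fallers (0.95% of all tested genes fell) and 0 risers among 13 tested, with a median of -1.12. In 12 of 13 every day-9 value lay below both day-6 values, against 18.5% of all tested genes. Elovl3, which elongates fatty acids of sebum, was 65.8 and 57.4 FPKM at day 6 and 13, 8.23 and 29.5 FPKM at day 9 (-1.98 ± 0.47 SE, adjusted p = 0.0412). Awat1, which makes wax esters, was 16.5 and 19.5 FPKM at day 6 and 2.46, 2.61 and 7.84 FPKM at day 9 (-1.98 ± 0.46 SE, adjusted p = 0.0394). Dgat2, which makes triglycerides, was 52.8 and 53.6 FPKM at day 6 and 24, 24 and 28.9 FPKM at day 9 (-1.03 ± 0.20 SE, adjusted p = 0.0254). The desaturase gene Scd3 did not pass, at 11.6 and 26.1 FPKM at day 6 and 2.90, 2.07 and 4.35 FPKM at day 9 (-2.21 ± 0.66 SE, adjusted p = 0.0736). Without replicate 3 of day 9, 6 of the 13 passed, without replicate 2 of day 6, 1 did, and without any other 1 of the 5 libraries 0 did. The lipid and drug metabolism genes Aadacl4, Ces4a and Cyp2b10, named among the 12 lowest fold changes, fell by 2.19, 1.88 and 1.79 on the log2 scale. Aadacl4 was 13.2 and 15.0 FPKM at day 6 and 1.73, 1.91 and 3.51 FPKM at day 9, Ces4a was 12.1 and 9.42 FPKM at day 6 and 1.31, 1.07 and 5.64 FPKM at day 9 and Cyp2b10 was 24.8 and 24.8 FPKM at day 6 and 8.90, 9.47 and 3.04 FPKM at day 9. The channel regulator gene Clca3a2 was 92.6 and 72.6 FPKM at day 6 and 16.2, 17.5 and 34.1 FPKM at day 9 (-1.89 ± 0.42 SE, adjusted p = 0.0363). The predicted genes Gm5538 and Gm9944 were at log2 changes of -2.31 ± 0.58 (SE), adjusted p = 0.0461 and -2.03 ± 0.52 (SE), adjusted p = 0.0493.

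All 16 adipocyte genes had every day-9 value below both day-6 values, against 18.5% of all tested genes. The list's median was -1.30, and 0 passed. Adipoq, the fat hormone adiponectin, was 28.1 and 60.2 FPKM at day 6 and 12.2, 6.5 and 7.42 FPKM at day 9 (-2.17 ± 0.57 SE, adjusted p = 0.052). Fabp4, a fatty acid carrier of fat cells, was 91.5 and 132 FPKM at day 6 and 81.2, 61.0 and 48.2 FPKM at day 9 (-0.82 ± 0.34 SE, adjusted p = 0.165). The list's sum was 1022 and 1673 FPKM at day 6 and 573, 513 and 548 FPKM at day 9. At day 6 it was lower in replicate 1, the library with the higher neutrophil sum. The part of library differences in these values was not tested.

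Skeletal muscle genes were lower in value as well. Of 19 mature muscle genes 1 fell (0.95% of all tested genes did) and 0 rose (median -0.81). Actn3, the alpha-actinin of fast fibres, was 97.0 and 136 FPKM at day 6 and 34.2, 39.5 and 45.5 FPKM at day 9 (-1.52 ± 0.39 SE, adjusted p = 0.0493). Leaving out replicate 1, 2 or 3 of day 9 in turn ended the call (adjusted p = 0.135, 0.138 and 0.0513). The call also ended without replicate 1 or 2 of day 6, where the log2 change of Actn3 was -1.76 or -1.28. The creatine kinase gene Ckm overlapped, at 60.3 and 118 FPKM at day 6 and 54.0, 49.4 and 76.5 FPKM at day 9 (-0.51 ± 0.38 SE, adjusted p = 0.431). Among 13 genes of muscle regeneration 0 passed and the median was -1.67. In 12 all day-9 values lay below both day-6 values, against 18.5% of all tested genes. Myh3, the embryonic myosin of newly formed fibres, was 39.8 and 40.9 FPKM at day 6 and 1.56, 7.27 and 5.10 FPKM at day 9 (-3.03 ± 1.03 SE, adjusted p = 0.101). Myh8, the perinatal myosin, was 32.4 and 44.2 FPKM at day 6 and 5.11, 9.32 and 14.6 FPKM at day 9 (-1.97 ± 0.71 SE, adjusted p = 0.116). Outside the lists, Mybph, a myosin-binding protein gene, fell from 14.9 and 21.7 FPKM at day 6 to 1.91, 4.14 and 5.36 FPKM at day 9 (-2.05 ± 0.43 SE, adjusted p = 0.031), and Cavin4, a muscle caveola gene, fell from 29.3 and 28.7 FPKM at day 6 to 4.86, 9.11 and 10.2 FPKM at day 9 (-1.78 ± 0.35 SE, adjusted p = 0.0259).

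Hypoxia and glycolysis genes had 2 fallers among 22 tested (0.95% of all tested genes fell) and a median of -0.41. Aldoa, aldolase A, was 303 and 286 FPKM at day 6 and 178, 167 and 221 FPKM at day 9 (-0.65 ± 0.16 SE, adjusted p = 0.0416), and Gapdh was 53.9 and 51.3 FPKM at day 6 and 36.3, 29.1 and 39.9 FPKM at day 9 (-0.58 ± 0.14 SE, adjusted p = 0.0403). Muscle is rich in glycolytic enzymes, and the summed FPKM of the mature muscle list was 3798 and 5469 at day 6 and 1880, 2636 and 3405 at day 9. Its part in the result was not tested. The calls of Aldoa and Gapdh both ended on rescaling to the nuclear genes, and that of Gapdh also with array quality weights. The glucose transporter gene Slc2a1 was 75.0 and 43.8 FPKM at day 6 and 36.3, 27.2 and 43.2 FPKM at day 9 (-0.70 ± 0.24 SE, adjusted p = 0.102). Without replicate 2 of day 6, 8 of the 22 passed, without replicate 3 of day 9, 2 did, and without any other 1 of the 5 libraries 0 did.

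Epidermal genes did not pass in any list. Wound-edge genes (25 tested) had a median of -0.91, basal keratinocyte genes (10) one of -0.72 and differentiated keratinocyte genes (27) one of -0.56. The stress keratin Krt6a was 3396 and 1613 FPKM at day 6 and 1494, 668 and 1072 FPKM at day 9 (-1.19 ± 0.50 SE, adjusted p = 0.163), and its sister gene Krt6b was 4491 and 2437 FPKM at day 6 and 2151, 895 and 1362 FPKM at day 9. The basal keratin Krt14 was 12732 and 8384 FPKM at day 6 and 7338, 3141 and 3939.9 FPKM at day 9 (-1.20 ± 0.47 SE, adjusted p = 0.14). Both stress keratins and Krt14 were highest in replicate 1 of day 6, with no overlap between the days. The keratins of the upper layers, Krt1 and Krt10, overlapped: Krt1 was 1345 and 2010.1 FPKM at day 6 and 1844, 2472 and 924 FPKM at day 9 and Krt10 was 439 and 1457 FPKM at day 6 and 1055, 2009.7 and 530.3 FPKM at day 9. The wound-edge median was -0.18 without replicate 1 of day 6 and -1.46 without replicate 2.

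Of all tested genes 3.41% rose, and vessel genes were close to that share, with a median of 0.29 and 1 riser among 20 tested. That was Apln, the apelin ligand, at 2.49 and 4.33 FPKM at day 6 and 17.5, 21.4 and 13 FPKM at day 9 (2.06 ± 0.42 SE, adjusted p = 0.0291). The endothelial junction genes Pecam1 and Cdh5 were 29.4 and 30.6 FPKM at day 6 and 33.2, 30.8 and 35.4 FPKM at day 9 (0.14 ± 0.18 SE, adjusted p = 0.677) and 29.4 and 32.6 FPKM at day 6 and 41.2, 37.6 and 36.0 FPKM at day 9 (0.30 ± 0.27 SE, adjusted p = 0.523). No gene passed among 32 cell cycle genes (median 0.11), 16 p53 targets (-0.05), 25 interferon-induced genes (-0.20), 15 immediate early genes (-0.12), 12 Schwann cell genes (-0.40), 5 red blood cell genes (0.23) and 4 sex-linked genes (0.01). The proliferation gene Mki67 was 16.9 and 12.9 FPKM at day 6 and 19.8, 17.9 and 13.5 FPKM at day 9, and the p53 target Cdkn1a was 94.8 and 80.9 FPKM at day 6 and 51.9, 54.3 and 77.1 FPKM at day 9, with the 3 day-9 values below both day-6 values (-0.54 ± 0.21 SE, adjusted p = 0.144). The p53 and immediate early medians changed sign under other scalings, to 0.10 and 0.04.

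The same interval in irradiated skin shows how far these changes are shared. In the same fit, 4 of the 14103 genes (0.0284%) passed in irradiated skin from day 6 to day 9, all of them upward, and 2101 had an unadjusted p under 0.05. Those 4 were Tmprss11e and 3 of the 5 red blood cell genes, a list with medians of 0.23 in control and 2.84 in irradiated skin. The change itself differed between the arms in 2 genes (0.0142%), with 2099 at an unadjusted p under 0.05. Of the 615 genes that passed in control skin, 79.8% had the same sign in irradiated skin, against 56.4% of all tested genes. Genes that rose in control skin had a median log2 fold change of 0.77 there and 0.20 in irradiated skin, and genes that fell had -0.76 and -0.09. These genes were chosen by their control change, which on its own makes their control median the more extreme.

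**Figure D5:**
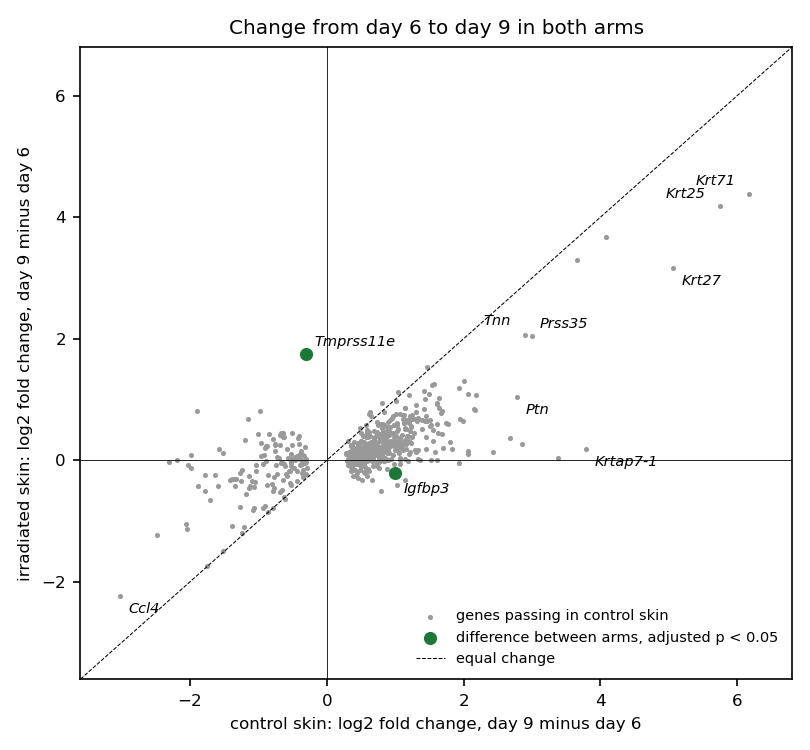
Log2 fold change of FPKM + 1 from day 6 to day 9 in irradiated skin (vertical axis) against that in control skin (horizontal axis) for the 615 genes that passed in control skin and for Tmprss11e, with the line of equal change dashed. Green points are the 2 genes whose change differed between the arms at an adjusted p under 0.05; Krt71, Krt25 and Krt27 lie at 4.39, 4.18 and 3.16 in irradiated skin and Krtap7-1 at 0.18.

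The 2 genes were Igfbp3 and Tmprss11e. Igfbp3 rose in control skin (log2 fold change 0.99) and was 50.4 and 55.7 FPKM at day 6 and 47.3, 45.2 and 45.2 FPKM at day 9 in irradiated skin (-0.20). The difference was 1.20 ± 0.15 (SE), control minus irradiated, adjusted p = 0.027. Tmprss11e, a membrane serine protease gene, was 10.4 and 7.50 FPKM at day 6 and 7.34, 6.52 and 7.21 FPKM at day 9 in control skin (-0.30). In irradiated skin it was 3.56 and 3.78 FPKM at day 6 and 14.8, 14.4 and 15.0 FPKM at day 9 (1.75). The difference was -2.05 ± 0.24 (SE), control minus irradiated, adjusted p = 0.0225. Both calls were lost with array quality weights and on leaving out replicate 1 of control day 6, replicate 1 or 2 of control day 9, replicate 1 of irradiated day 6 or any 1 library of irradiated day 9. In each of these fits 0 genes passed, and 1170 to 2440 had an unadjusted p under 0.05.

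The follicle genes ranged widely in their irradiated values. Krt71 was 0.161 and 0.0495 FPKM at day 6 and 15.3, 44.1 and 15.9 FPKM at day 9 in irradiated skin, a log2 fold change of 4.39 that did not pass (adjusted p = 0.132). Krtap7-1 was 0 and 0 FPKM at day 6 and 0.235, 0.176 and 0 FPKM at day 9 there, a log2 fold change of 0.18. The inner root sheath keratin Krt72 was also low there, at 0 and 0 FPKM at day 6 and 0.183, 0.695 and 0.0678 FPKM at day 9 (log2 fold change 0.37). The difference between the arms was 1.79 ± 1.33 (SE), control minus irradiated, adjusted p = 0.544 for Krt71 and 3.62 ± 1.06 (SE), control minus irradiated, adjusted p = 0.228 for Krtap7-1, and neither passed. Over the 24 tested genes of the list the median was 1.96 in control skin and 0.14 in irradiated skin. The filter that chose these genes used control libraries alone.

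Collagens were closer, with medians of 1.39 and 1.02, and Col1a1 was at 1.67 and 1.39. Collagen crosslinking genes had medians of 1.07 and 0.23. Inflammatory genes were at -1.03 and -0.98 and mature muscle genes at -0.81 and -0.82. Lists whose medians stood on opposite sides of 0 included differentiated keratinocyte genes (-0.56 and 0.64), basal keratinocyte genes (-0.72 and 0.34) and mast cell genes (-1.58 and 0.67). The mast cell protease gene Mcpt4 had a difference between the arms of -2.61 ± 0.58 (SE), control minus irradiated, adjusted p = 0.159, and Krt14 one of -1.65 ± 0.66 (SE), control minus irradiated, adjusted p = 0.284. No member of these 3 lists passed the test of the difference. The irradiated day-6 libraries stood far apart in keratins. Krt14 was 3559 and 12080.1 FPKM at day 6 and 9672, 8320.0 and 8909.6 FPKM at day 9 in irradiated skin, so all 3 day-9 values lay above replicate 1 of day 6 and below replicate 3. Krt1 was 274 and 1171 FPKM at day 6 and 819, 2177 and 1636 FPKM at day 9 there, with replicate 1 of day 6 again the lowest.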

How the data were processed

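The values deposited for the 17 libraries of mouse skin are FPKM, that is, fragment numbers divided by gene length and by library total, for 34140 genes. Alignment was to mm10 with HISAT2 2.2.1, per the submitters' processing notes. Which tool counted fragments, and on which annotation, is not given in the sources used here. Dividing FPKM by the value of 1 fragment, with GENCODE M21 gene lengths, gave whole numbers (within 0.01 fragments) for all values of 31476 of 34067 genes with a length. This gave the depths stated above, and the recovered fragments went into an alternative test.

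The deposited FPKM went into all tests as log2(FPKM + 1), which understates the change of genes near 1 FPKM. Genes with at least 1 FPKM in at least 2 of the 5 libraries were kept. A gene low at day 6 could thus be kept through its day-9 values alone, or the reverse. In limma 3.58.1 (limma-trend, under R 4.3.3), 1 mean was estimated for each group over the 17 libraries, because the 5 libraries alone leave 3 residual degrees of freedom. P-values were adjusted over all 14103 genes (Benjamini-Hochberg), and an adjusted p under 0.05 passed. The second test was the same change in control minus irradiated skin. Replicate numbers were not used as pairs. The script was tested on simulated data.

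Named genes are the 12 highest and 12 lowest fold changes among passing protein-coding genes with a mean of at least 5 FPKM in the higher group and no overlap between the days; up to 4 passing members and the first members of each of 36 gene lists; and fixed TGF-beta genes. Further list members are named as examples, and genes of no list and outside the rule are marked as picked with their values in view. The comparison, lists and rule were chosen with earlier results of these data known. Alternatives covered the pseudocount (0.1 and 5), the filter, scaling, the libraries fitted, a replicate block, array weights, a robust fit and each library left out; those on recovered fragments and on libraries of other groups were chosen after seeing the data. Promoter sequences come from RefSeq (GRCm38.p6), which held 20 of the 26 hair genes.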

Additional observations from a re-analysis of the deposited data

Results flagged for a closer look

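The change from day 6 to day 9 differed between control and irradiated skin, by the interaction test in limma, in 2 genes. For Igfbp3 the difference was 1.20 on the log2 scale (0.99 in control and -0.20 in irradiated skin). For Tmprss11e it was -2.05 (-0.30 in control and 1.75 in irradiated skin). Both calls were lost with array quality weights and on leaving out any 1 of 7 of the 10 libraries of control and irradiated days 6 and 9. Neither was weighed further.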

How the results depend on the processing

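Against 615 genes in control skin and 2 for the difference between the arms, the counts were 399 with a pseudocount of 0.1; 304 and 7 with no filter; 1097 and 1 with quantile normalization; and 1508 and 1 with nuclear-total scaling. A limma-voom test of the recovered fragments, chosen after seeing the data, passed 552 and 2. The fit of only the 5 libraries passed 0 and that of only the 9 control libraries 11, of which 8 were among the 615; both have fewer residual degrees of freedom (3 and 5, against 10). Array quality weights passed 0 for the difference. The replicate block passed 1433 and 1 and kept all 615. Deviations of same-numbered libraries from their group means had r of -0.18 for number 1 and 0.40 for number 2. With 2 day-6 libraries these deviations mirror each other, so the r values cannot decide on pairing. The numbers were not taken as pairs because the labels do not say that they pair libraries. Leaving out 1 library at a time gave 0 to 1294 genes and, for the difference, 0 to 756. In control skin the counts were 0 without control day 6 replicate 1, 25 and 26 without control day 9 replicates 1 and 2, 935 without replicate 3 and 1294 without control day 6 replicate 2. Libraries of other groups, which enter only through the estimate of spread, moved it to between 188 and 1040. For the difference, 756 genes passed without irradiated day 6 replicate 3, 76 without control day 9 replicate 3 and 15 without control day 6 replicate 2, and 0 without any other single library of control or irradiated days 6 and 9. The cause was not tested. The 615 genes do not overlap between the days, so leaving out a library could not turn their sign. The effect of depth was not tested, and 2 and 3 libraries a group limit the precision.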

Other observations

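Several genes outside the lists, chosen after their values were seen, had the lowest adjusted p-values of the comparison. Lrrn3, which codes for a neuronal leucine-rich repeat protein, was 0.805 and 1.21 FPKM at day 6 and 4.07, 3.06 and 3.16 FPKM at day 9 (1.14 ± 0.13 SE, adjusted p = 0.0095, log2 scale). Spon1, the matrix protein spondin, was 4.89 and 7.57 FPKM at day 6 and 32.5, 34.9 and 25.0 FPKM at day 9 (2.15 ± 0.27 SE, adjusted p = 0.0108), and Col27a1, a fibrillar collagen, was 1.82 and 3.10 FPKM at day 6 and 7.52, 7.47 and 7.66 FPKM at day 9 (1.33 ± 0.18 SE, adjusted p = 0.0108). Nab2, a corepressor of early growth response factors, was 5.47 and 4.70 FPKM at day 6 and 9.93, 11.6 and 9.45 FPKM at day 9 (0.89 ± 0.11 SE, adjusted p = 0.0108). Maob, monoamine oxidase B, fell from 6.26 and 6.26 FPKM at day 6 to 2.10, 2.45 and 2.41 FPKM at day 9 (-1.13 ± 0.14 SE, adjusted p = 0.0108). In these 5 genes the day-9 libraries did not overlap with day 6, as in every gene that passed.

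Imprinted genes, also chosen after their values were seen, did not move as a block. Dlk1 lies on chromosome 12 with the noncoding genes Meg3, Rian and Mirg, which are expressed from the other parental copy. Dlk1 had a log2 fold change of 2.07, Rian was 3.52 and 7.97 FPKM at day 6 and 19.1, 21.9 and 20.2 FPKM at day 9 (1.75 ± 0.37 SE, adjusted p = 0.0323) and Mirg was 0.324 and 0.838 FPKM at day 6 and 1.95, 2.57 and 1.99 FPKM at day 9 (1.02 ± 0.18 SE, adjusted p = 0.0218). Meg3 was 2.96 and 8.77 FPKM at day 6 and 18.1, 18.2 and 16.1 FPKM at day 9 and did not pass (1.57 ± 0.46 SE, adjusted p = 0.071). Plagl1, a zinc finger gene, rose from 4.37 and 8.58 FPKM at day 6 to 20.3, 23.8 and 22.4 FPKM at day 9 (1.69 ± 0.31 SE, adjusted p = 0.0218). H19 was 313 and 290.0 FPKM at day 6 and 273, 325 and 304 FPKM at day 9 (-0.01 ± 0.37 SE, adjusted p = 0.994), and its neighbour Igf2 was 31.7 and 28 FPKM at day 6 and 12.7, 23.1 and 15.4 FPKM at day 9 (-0.81 ± 0.54 SE, adjusted p = 0.371).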
